A study of Mus musculus with 18 samples.

Results

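The comparison described here is LAP2α knockout (KO) against wildtype (WT) in proliferating mouse myoblasts, and it used 6 of the 18 RNA sequencing libraries of the study, 3 of each genotype, chosen by their labels as the libraries of the proliferating state (Prol). All cells were immortalized myoblasts without p53. The KO population carried a CRISPR-Cas9 lesion in Tmpo, the gene of LAP2α, and the WT population had received Cas9 without a guide. Each genotype was 1 population sorted in bulk, so a difference of genotype and a difference between these 2 cell populations cannot be told apart. Prol cells were harvested in 20% serum below 70% confluency, whereas the libraries of day 0 (D0) came from cells grown to confluence and those of day 2 (D2) from cells kept for 48 h in 5% serum, the condition in which myoblasts leave the cell cycle and fuse. The labels do not say whether the 3 libraries of a group were separate cultures, so the tests measure the spread between libraries, which may be technical.

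LAP2α is the isoform of lamina-associated polypeptide 2 that lacks a membrane anchor. It moves through the interior of the nucleus, carries a LEM domain, and binds A-type lamins and the retinoblastoma protein, a brake on the G1 to S transition. In muscle progenitors, exit from the cell cycle and the start of differentiation are coupled steps, and the proliferating state is the starting point against which both are judged.

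The edited place is shown first, since it defines the KO. The guide matched exon 4 of 4 of the LAP2α transcript, which codes for the part of the protein particular to LAP2α, at chr10:91163326-91163345 on the minus strand of GRCm38. It is printed with flanking bases, the 20 guide bases in capitals and the PAM being the ggg that follows them.
Tmpo exon 4: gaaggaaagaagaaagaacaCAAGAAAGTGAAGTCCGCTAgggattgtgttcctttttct
A cut 3 bases before the PAM lies after coding base 595 of 2079, in codon 199 of 693. Among the genes kept in the search, no other had an annotated transcript that held a site with an NGG PAM and at most 3 mismatches. Genes of part of the genome were left out, so a site in another gene is not excluded. Introns and intergenic sequence were not searched.

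Levels are given in CPM, counts scaled to a common library total with TMM factors, and a gene was called where its KO/WT change exceeded 1.5-fold at an unadjusted p under 0.05 by limma and its level reached 10 CPM in at least 1 of the 6 libraries. Of 17672 genes tested, 41 were called (0.232%), 11 of them higher in KO (0.0622%) and 30 lower (0.17%). The higher group held Col15a1, the collagen XV chain of the basement membrane zone, Thbs2, the matricellular thrombospondin 2, Fmod, a collagen-binding proteoglycan, and Efemp1, fibulin-3. It also held other secreted and surface proteins, the E3 ubiquitin ligase Trim25, the pseudogene Gm7862, and Gm45234, which overlaps other genes. The lower group held Lama5, the laminin α5 chain, Rep15, an effector of the GTPase Rab15, Tapbpl, a peptide editor of MHC class I, and 15 genes that are not annotated as protein-coding. In bulk RNA a different share of cells and a different level per cell cannot be told apart.

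None of the 41 called genes passed after Benjamini-Hochberg adjustment over all tested genes by limma, the smallest adjusted p among them being 0.698. The libraries of equal replicate number were treated as a block, and without that block 20 genes were called. Without the pair of replicate 1, 21 genes were called, 12 of them among the 41, and 64 were called without the third KO library. At an unadjusted p under 0.05 there were 394 genes (2.23%), 174 higher (0.985%) and 220 lower (1.24%). An adjusted p under 0.05 was reached by 1 of the 17672 genes (0.00566%). Of the 9589 genes that reached 10 CPM in a Prol library, the median standard error (SE) of a log2 fold change was 0.184, and 7401 (77.2%) had a 95% interval lying wholly within a 1.5-fold change. That number was 3877 (40.4%) without the block and 4456 (46.5%) without the pair of replicate 3.

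**Figure D1:**
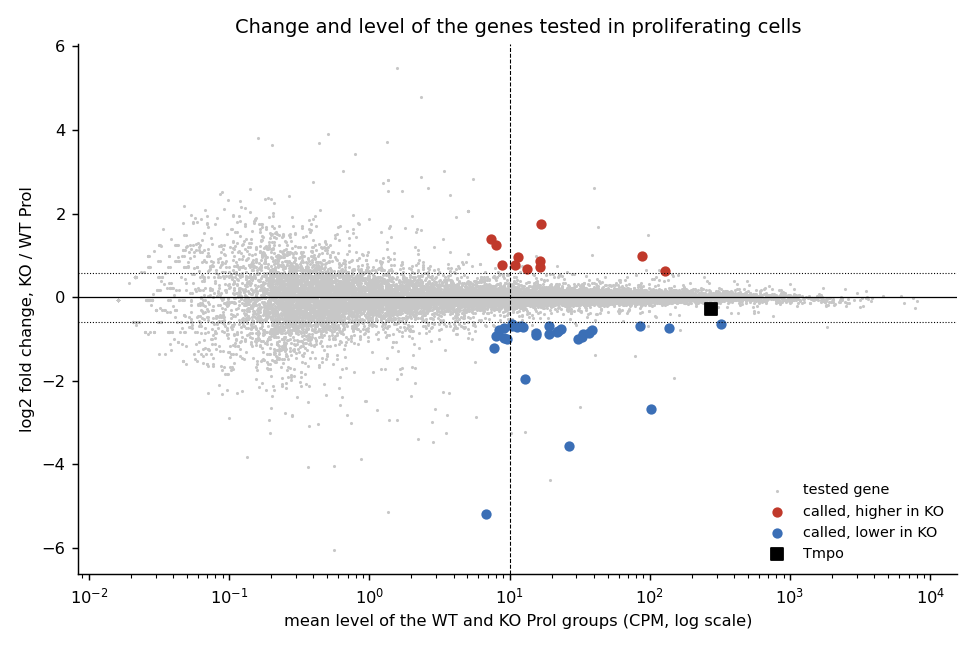
Log2 fold change (KO/WT, Prol) against the mean level in CPM on a log axis for the genes tested. Red points are the 11 called genes higher in KO, blue points the 30 lower, and the black square is Tmpo. Dotted lines mark 1.5-fold and the dashed line 10 CPM, and the cloud of genes narrows to the right as levels increase.

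The 6 libraries held between 26437823 and 38283031 expected counts. Tmpo itself measured 310, 275 and 315 CPM in the WT libraries and 250, 228 and 260 CPM in KO. Every KO value lay below every WT value, with a log2 fold change of −0.28 (SE 0.15, 95% interval −0.61 to 0.04, adjusted p = 1.0 by limma). The value sums all isoforms, those without exon 4 included, and a small lesion need not change an mRNA level, so it is no check of the genotype labels. None of the 5 listed genes within 500 kb of Tmpo was called: Apaf1 had a log2 fold change of 0.15, Ikbip of 0.04, Slc25a3 of −0.07, Anks1b of −0.07, and the small RNA gene Gm24119 of −1.01.

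**Figure D2:**
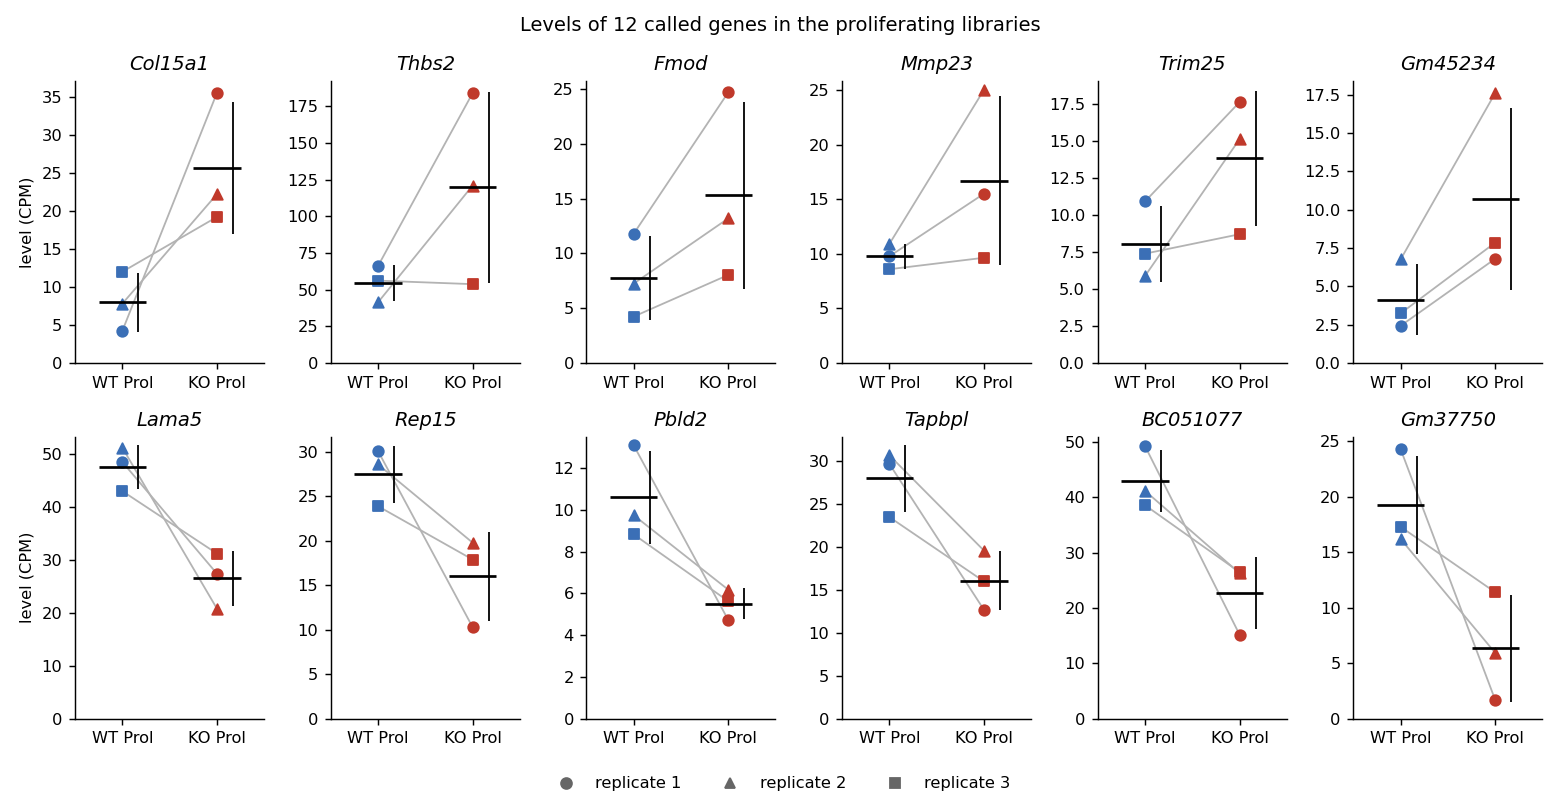
Level in CPM of 12 called genes in each of the 6 Prol libraries, on linear axes that start at 0. Symbols mark the replicate number and grey lines join libraries of the same number, the horizontal bar is the group mean and the vertical bar its SD (n = 3). For Col15a1 and Gm45234 in the upper row and all genes in the lower row, the KO values do not overlap the WT values, while in Thbs2 and Mmp23 the third KO library lies near the WT libraries.

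Promoter sequences of 4 called genes of matrix proteins are given because these genes differed in both directions and are described in all 3 states or at D2: Col15a1, Thbs2 and Efemp1, which were higher, and Lama5, which was lower. Each is the 250 bases before the RefSeq start on GRCm38.p6, on the strand of the gene, and capitals mark a match to one of 4 motifs.
Col15a1 (chr4:47207762-47208011, plus strand): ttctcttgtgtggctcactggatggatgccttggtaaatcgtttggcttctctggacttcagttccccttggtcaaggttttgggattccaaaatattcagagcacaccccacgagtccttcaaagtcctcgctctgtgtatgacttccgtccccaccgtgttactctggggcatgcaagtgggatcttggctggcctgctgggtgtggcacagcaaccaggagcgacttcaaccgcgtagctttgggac
Thbs2 (chr17:14694263-14694512, minus strand): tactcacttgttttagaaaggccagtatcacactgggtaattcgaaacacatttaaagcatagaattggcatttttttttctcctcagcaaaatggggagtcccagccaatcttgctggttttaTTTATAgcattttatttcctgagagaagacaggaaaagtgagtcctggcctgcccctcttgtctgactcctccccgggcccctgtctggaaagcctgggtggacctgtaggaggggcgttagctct
Efemp1 (chr11:28852955-28853204, plus strand): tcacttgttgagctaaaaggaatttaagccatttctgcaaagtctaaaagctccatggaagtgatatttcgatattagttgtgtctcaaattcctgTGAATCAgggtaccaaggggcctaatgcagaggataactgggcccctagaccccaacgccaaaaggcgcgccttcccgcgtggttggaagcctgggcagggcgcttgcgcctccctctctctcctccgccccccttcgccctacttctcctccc
Lama5 (chr2:180225860-180226109, minus strand): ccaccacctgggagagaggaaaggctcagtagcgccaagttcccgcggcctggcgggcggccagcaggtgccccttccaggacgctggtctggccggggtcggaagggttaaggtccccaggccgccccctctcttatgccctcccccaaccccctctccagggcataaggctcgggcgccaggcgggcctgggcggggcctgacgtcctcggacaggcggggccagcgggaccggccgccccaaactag
The motifs searched on both strands were CAGCTG, an E-box that myogenic factors use, TGANTCA, a form of the AP-1 site left open at its central base, CATTCC of TEAD factors, and TATAAA. The Efemp1 window held 1 TGANTCA match, which reads TGAATCA. The Thbs2 window held 1 TATAAA match on the other strand, where it reads TTTATA. Col15a1 and Lama5 held no match in this window. Among 27025 windows of the same length, CAGCTG was present in 12.77%, TGANTCA in 6.87%, CATTCC in 12.63% and TATAAA in 12.97%, so these matches are common and are given as a description only.

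Among the genes higher in KO, Col15a1 (chr4:47208161-47313167, GRCm38) had the largest change. Its level was 4.24, 7.81 and 12 CPM in the WT libraries and 35.5, 22.2 and 19.2 CPM in KO. The groups did not overlap, and the means were 8.0 ± 3.86 and 25.6 ± 8.66 CPM (SD, n = 3), a log2 fold change of 1.75 (SE 0.38, 95% interval 0.96 to 2.55, adjusted p = 0.698 by limma). The first WT library was the lowest of all 6 and the first KO library the highest, and the gene stayed past the unadjusted threshold without that pair.

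Thbs2 (chr17:14665500-14694235) measured 66.2, 41.4 and 56.2 CPM in WT and 184, 121 and 53.8 CPM in KO. The first and second KO libraries lay above all WT libraries and the third lay among them, which gave a log2 fold change of 0.99 (SE 0.41). Fmod showed 11.8, 7.25 and 4.24 CPM in WT against 24.7, 13.2 and 8.04 CPM in KO, with a log2 fold change of 0.95 (SE 0.42). KO exceeded WT in each of the 3 pairs of equal replicate number although the groups overlapped. Efemp1 (chr11:28853204-28926743) was at 13.3, 10.3 and 12.2 CPM in WT and at 24.3, 27.6 and 11.1 CPM in KO, again with the third KO library at the WT level.

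Sfrp2, a secreted modulator of Wnt ligands, measured 92.5, 117 and 93.3 CPM in WT and 169, 177 and 122 CPM in KO. These groups did not overlap (101 ± 13.9 against 156 ± 30.2 CPM, log2 fold change 0.62, SE 0.29). Srpx2, a secreted sushi-repeat protein, went from 7.86, 6.42 and 4.57 CPM in WT to 14.8, 13.3 and 5.91 CPM in KO. Mmp23, a matrix metalloproteinase, was at 9.77, 10.9 and 8.59 CPM in WT and 15.5, 25 and 9.64 CPM in KO (log2 fold change 0.67, SE 0.27, adjusted p = 1.0 by limma). In both genes the third pair differed less than the other pairs.

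S1pr3, a receptor for sphingosine-1-phosphate, measured 13.7, 9.67 and 10.6 CPM in WT and 27, 25 and 12.4 CPM in KO. Trim25, an E3 ubiquitin ligase, measured 10.9, 5.87 and 7.38 CPM in WT and 17.6, 15.1 and 8.69 CPM in KO, with a log2 fold change of 0.76 (SE 0.29, adjusted p = 1.0 by limma). In each of these genes the first and second KO libraries lay above all WT libraries and the third lay within the WT range. Gm45234 had 2.43, 6.76 and 3.24 CPM in WT and 6.8, 17.6 and 7.85 CPM in KO, which do not overlap (log2 fold change 1.38, SE 0.35, adjusted p = 1.0 by limma), but it overlaps Atn1, Grcc10 and Rnu7 on the same strand, and which of them its reads came from is uncertain. The pseudogene Gm7862, which lies within Esr2 on the same strand, went from 1.52, 6.89 and 6.89 to 18, 8.88 and 6.07 CPM (log2 fold change 1.25, SE 0.48, adjusted p = 1.0 by limma).

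Of the 11 higher genes, 8 were higher in KO in all 3 pairs, and 3 did not overlap between the groups (Col15a1, Gm45234 and Sfrp2). All 3 pairs had 1 direction, either higher or lower, in 25.9% of all tested genes and 25.7% of those at 10 CPM or more. All KO values lay above all WT values in 1.85% of all tested genes and 1.01% of those at 10 CPM or more. Both counts come from the libraries on which the genes were selected, so the selection itself raises them and they lend it no support. The median log2 change within a pair was 0.97 for replicate 1, 1.36 for replicate 2 and 0.24 for replicate 3. The first KO library was the highest of the 6 in 7 of the 11 genes. Without the first pair, 3 of the 11 remained past the unadjusted threshold, with a median log2 fold change of 0.74.

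Among the genes lower in KO, Lama5 (chr2:180176373-180225859) measured 48.5, 51.2 and 43.0 CPM in WT and 27.4, 20.8 and 31.2 CPM in KO. All KO libraries lay below all WT libraries, with means of 47.6 ± 4.16 and 26.5 ± 5.24 CPM (SD, n = 3) and a log2 fold change of −0.86 (SE 0.19, adjusted p = 0.698 by limma). Lama5 overlaps the microRNA gene Mir7005 on its strand. Rep15 (chr6:147032584-147034245) measured 30.1, 28.6 and 23.9 CPM in WT and 10.3, 19.8 and 17.9 CPM in KO. Its groups did not overlap either (27.5 ± 3.21 against 16 ± 5.03 CPM, log2 fold change −0.83, SE 0.18, adjusted p = 0.698 by limma).

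Tapbpl measured 29.7, 30.7 and 23.5 CPM in WT and 12.7, 19.6 and 16 CPM in KO, without overlap. Siglec1, a sialic acid-binding receptor known from macrophages, measured 24.9, 15.3 and 19.9 CPM in WT and 6.92, 12.4 and 13.6 CPM in KO, also without overlap. The macrophage markers that were tested summed to 8.8 to 10 CPM in WT and 8.5 to 10.4 CPM in KO, and Ptprc, Adgre1 and Itgam were not among the tested genes. Unc13d, which acts in granule exocytosis, averaged 28.4 CPM in WT and 18.1 CPM in KO. The protein-coding genes Mettl7a3, Mpv17l, Ccdc62, Alpk2, Gm29666 and Churc1 were also lower without overlap, with log2 fold changes from −0.98 for Mettl7a3 to −0.68 for Churc1, which overlaps Fntb on its strand.

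Gas7, a growth-arrest-specific gene, showed 10.2, 17.7 and 4.8 CPM in WT and 4.58, 6.54 and 2.36 CPM in KO. The groups overlapped, both genotypes ranked alike by replicate number, and KO was lower in each pair (log2 fold change −1.21, SE 0.38). Msln, the surface protein mesothelin, was likewise lower in KO in each pair with overlapping groups, at 26.5, 47.7 and 45.8 CPM in WT and 11.6, 18.4 and 34.8 CPM in KO. Pbld2 fell without overlap from 13.1, 9.75 and 8.83 to 4.73, 6.18 and 5.63 CPM. The mitochondrial gene mt-Atp8, an ATP synthase subunit that overlaps mt-Atp6, read 342, 459 and 356 CPM in WT and 134, 345 and 309 CPM in KO, and mitochondrial transcripts as a whole took 2.18%, 5.35% and 2.82% of the WT libraries and 1.5%, 4.19% and 3.43% of the KO libraries.

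Genes that are not protein-coding were 15 of the 30 lower genes, compared with 3.82% of all genes at 10 CPM or more. Gm37750 went from 24.3, 16.2 and 17.3 CPM in WT to 1.69, 5.93 and 11.4 CPM in KO (log2 fold change −1.97, SE 0.42, adjusted p = 0.698 by limma). It overlaps Gm28305 on the same strand. The long noncoding RNA gene BC051077 fell from 49.3, 41.2 and 38.6 CPM to 15.2, 26.3 and 26.5 CPM (log2 fold change −0.96, SE 0.23, adjusted p = 0.905 by limma). The pseudogene Amd-ps3 fell from 14.3, 14.6 and 9.01 CPM to 8.7, 3.8 and 6.97 CPM (log2 fold change −1.01, SE 0.24, adjusted p = 0.958 by limma). None of these 3 genes overlapped between the groups, though a pseudogene shares reads with its parent gene and its value is uncertain for that reason. The other such genes were 4930558N11Rik, 1700120C14Rik, A330069E16Rik, Gm12976, Gm15879, Rpl14-ps1, 2810403D21Rik, B930036N10Rik and Gm15396, with log2 fold changes from −0.88 to −0.65, and the last 3 of them overlapped between the groups.

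In the last 3 lower genes the change rested on the first and second KO libraries or on 1 of them. The entry Mir6240 measured 29.3, 0.304 and 6.38 CPM in WT and 0.015, 0.0157 and 4.88 CPM in KO. Gm10108 measured 29.0, 22.6 and 41.3 CPM in WT and 0.015, 31.7 and 34 CPM in KO. Tpt1-ps3 had 194, 93.6 and 144 CPM in WT and 47.6, 1.62 and 130 CPM in KO. The third KO library lay within the range of WT in each of them, and the fitted log2 fold changes were −5.20 for Mir6240, −3.57 for Gm10108 and −2.68 for Tpt1-ps3. The first and second KO libraries of Mir6240 and the first of Gm10108 had no count, so these fitted values depend on the offset of 0.5 counts added by the authors.

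Of the 30 lower genes, 27 were lower in KO in all 3 pairs and 21 did not overlap between the groups. All 3 pairs had 1 direction, either higher or lower, in 25.9% of all tested genes. Every KO value lay below every WT value in 2.56% of all tested genes and 1.14% of those at 10 CPM or more. Here too the selection on the same libraries raises both counts, which lend it no support. The pairs differed in size, with median log2 changes of −1.49, −0.6 and −0.39 for replicates 1, 2 and 3. The first KO library was the lowest of the 6 in 25 of the 30 genes, and in 12 of the 15 that are not protein-coding. Over all genes that are not protein-coding at 10 CPM or more, the pair medians were −0.13, −0.025 and −0.02, against 0.021, 0.019 and −0.019 for protein-coding genes. Without the first pair, 10 of the 30 stayed past the unadjusted threshold with a median log2 fold change of −0.51. The part of this library in the lower group was not tested further.

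Pairs of equal replicate number were also read one at a time. At a level of 10 CPM, KO and WT differed by more than 1.5-fold in 292 genes in the first pair (115 higher, 177 lower), in 286 in the second (183 higher, 103 lower) and in 91 in the third (44 higher, 47 lower). The same threshold applied between WT libraries gave 1890, 776 and 635 genes. Libraries of the same genotype and different number were thus further apart than libraries of different genotype and the same number. A change beyond 1.5-fold in one direction in all 3 pairs was found for 6 genes: Col15a1, Fmod and Gm45234 were higher, and Gas7, Pbld2 and Gm37750 were lower.

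The D0 and D2 libraries gave another reading of each of the 41 genes. Their levels did not enter the fold changes in Prol, but they came from the same 2 cell populations and shared in the estimate of the spread behind the Prol tests. They also carried the same replicate numbers, which the block joins across states. With the Prol libraries alone 56 genes were called, 38 of them among the 41. All 11 higher genes were higher in KO at D0, a direction shared by 62.1% of the genes at 10 CPM or more in Prol, and 8 were called there (0.164% of all tested genes and 0.219% of those at 10 CPM or more were called higher at D0). At D2, 9 were higher, beside 44.3% of the genes at 10 CPM or more, and 8 were called (0.589%, and 0.72% at 10 CPM or more). Their median log2 fold change was 0.86 in Prol, 0.76 at D0 and 0.96 at D2. As in Prol, the third pair at D0 was close in several of these genes. In that pair WT and KO measured 53.7 and 56.1 CPM for Thbs2, 12.1 and 12.8 CPM for S1pr3, and 6.51 and 6.63 CPM for Srpx2. Trim25 was at 7.96 CPM in WT and 7.63 CPM in KO. Others stayed apart, such as Col15a1 at 13 and 25.1 CPM and Fmod at 4.71 and 11.4 CPM. No gene had an adjusted p under 0.05 at D0 or D2 by limma, where 570 genes (3.23%) and 872 genes (4.93%) had an unadjusted p under 0.05.

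Col15a1 measured 10.3, 9.52 and 13 CPM in WT D0 and 59.3, 31.2 and 25.1 CPM in KO D0, then 29.3, 39.9 and 56.7 CPM in WT D2 and 180, 94.6 and 97.8 CPM in KO D2. The log2 fold changes were 1.73 at D0 and 1.55 at D2, close to that in Prol, and the groups did not overlap in any state. Thbs2 at D2 measured 471, 204 and 294 CPM in WT and 2390, 1090 and 414 CPM in KO, a log2 fold change of 1.75. Efemp1 at D2 measured 60.8, 72.3 and 77.7 CPM in WT and 182, 170 and 132 CPM in KO, without overlap. The exceptions at D2 were Gm45234 with a log2 fold change of −0.38, after 2.36 at D0, and Gm7862 with −0.52.

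**Figure D3:**
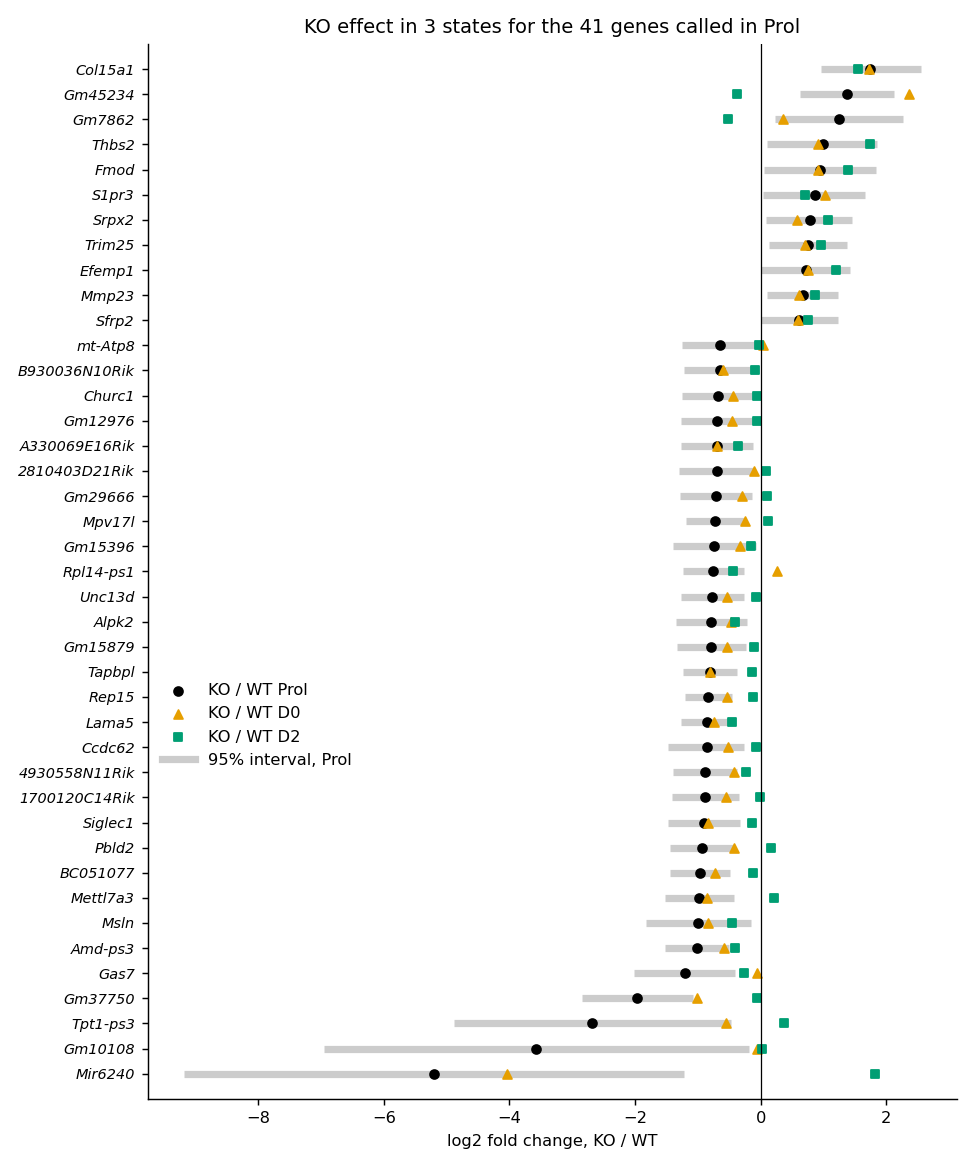
Log2 fold change (KO/WT) of the 41 genes called in Prol, ordered by their value in Prol: black circles with a grey bar are Prol with its 95% interval, orange triangles D0 and green squares D2. Most higher genes have all 3 symbols on the right, while the D2 symbols of the lower genes lie near 0 (median −0.09).

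Most lower genes were lower at D0 too. There 28 of the 30 were below WT, beside 37.9% of the genes at 10 CPM or more, and 10 were called (0.238% of all tested genes, 0.261% at 10 CPM or more). Lama5 measured 60.1, 32.7 and 44.5 CPM in WT and 35.4, 17.5 and 30.5 CPM in KO. At D2, 22 were below WT, beside 55.7% of the genes at 10 CPM or more, and none was called (0.555%, and 0.501% at 10 CPM or more). The median log2 fold change went from −0.85 in Prol to −0.53 at D0 and −0.09 at D2. Lama5 alone had an unadjusted p under 0.05 at D2 by limma, and was at 99.4, 67.6 and 95.7 CPM in WT D2 and 68.9, 47.2 and 75.6 CPM in KO D2, a log2 fold change of −0.46.

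The change of effect between states was itself tested by limma as an interaction. None of the 17672 genes had an adjusted p under 0.05 for a difference between D2 and Prol (422 genes, 2.39%, at an unadjusted p under 0.05) or between D0 and Prol (299 genes, 1.69%). Of the 41 called genes, 10 of the lower and 2 of the higher had an unadjusted p under 0.05 for the difference between D2 and Prol, but the Prol values that enter it are those that selected the genes. The loss of the lower genes' difference at D2 is therefore given as values, not as a tested change.

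Rep15 shows the levels behind these numbers. In WT it measured 23.9 to 30.1 CPM in Prol and 5.57, 7.92 and 7.08 CPM at D2, where KO stood at 5.83, 6.79 and 6.15 CPM. The KO libraries in Prol, at 10.3 to 19.8 CPM, lay between these ranges. Most of the lower genes likewise fell as WT cells differentiated: 20 of 30 (66.7%) were called lower in WT D2 against WT D0, where 12% of all tested genes and 21.9% of the genes at 10 CPM or more were. Of the 15 that are not protein-coding, 11 were among these 20. Lama5, Gas7 and Msln went the other way, being higher in WT D2 than in WT D0 and lower in KO in Prol.

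In the same comparison the higher genes ran the other way. In WT D2 against WT D0, 7 of 11 (63.6%) were called higher, where 12.1% of all tested genes and 14.7% of the genes at 10 CPM or more were, and none was called lower. These were Col15a1, Thbs2, Efemp1, Srpx2, Mmp23, Trim25 and Gm45234, with log2 fold changes from 0.73 for Trim25 to 2.62 for Srpx2. The WT D2 and WT D0 levels did not enter the fold changes in Prol. These libraries shared in the estimate of the spread by which the genes were selected, so their calls are not independent of that selection.

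**Figure D4:**
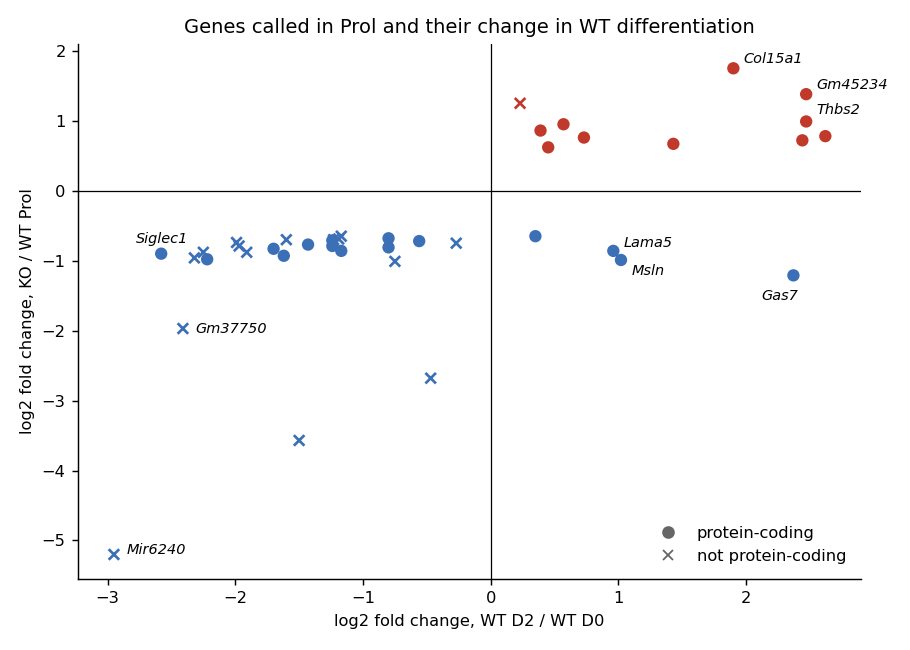
Log2 fold change of KO/WT in Prol against that of WT D2/WT D0 for the 41 called genes. Circles are protein-coding and crosses are not, red is higher and blue lower in KO. The 11 higher genes lie to the right of 0, and the lower genes lie to the left except Lama5, Msln, Gas7 and mt-Atp8.

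No gene of the proliferation lists was called. With 0.232% of all tested genes called, a list of this size would hold few calls or none. None of 30 DNA replication genes was called, with log2 fold changes between −0.21 and 0.16 (median 0.02, beside 0.001 over all tested genes). In 25 of them the 95% interval lay within 1.5-fold, beside 77.2% of the genes at 10 CPM or more. None of 30 mitosis genes was called (−0.14 to 0.11, median −0.027, 21 intervals within 1.5-fold). Pcna, the sliding clamp of DNA polymerase, averaged 398 CPM in WT and 378 CPM in KO, and Top2a, topoisomerase IIα, 715 and 716 CPM. For scale, all 30 replication genes and all 30 mitosis genes were called lower in WT D2 against WT D0. Without the block the intervals lay within 1.5-fold in 5 of the 30 replication genes (16.7%) and 6 of the 30 mitosis genes (20.0%). Among all genes at 10 CPM or more that share was 40.4%.

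The lists around LAP2α and its partners had no called member either, beside the same 0.232% of all tested genes. Of 17 lamin, LEM-domain and lamina genes none was called and 12 had intervals within 1.5-fold, with Lmna, the gene of lamins A and C, at 839 CPM in WT and 896 CPM in KO on average. Of 16 retinoblastoma and E2F genes none was called and 15 had intervals within 1.5-fold. Without the block 6 of the 17 (35.3%) and 7 of the 16 (43.8%) did, beside 40.4% of the genes at 10 CPM or more. Ccnd1, cyclin D1, averaged 302 CPM in WT and 252 CPM in KO (log2 fold change −0.25), and Cdkn1a, the inhibitor p21, 9.67 and 9.9 CPM in these p53-deficient cells. Among 20 genes of CDK inhibitors, D cyclins and p53 targets none was called. Acetyltransferases and deacetylases (18 genes), high-mobility-group proteins (9) and ATF4 stress response genes (20) had no called member. The last ranged from −0.14 to 0.09, with pair medians of 0.073, 0.063 and −0.175. Of these 20 genes, 11 had intervals within 1.5-fold, and 4 without the block.

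No gene of the muscle lists was called, where 0.232% of all tested genes were. A call also needed 10 CPM, which 16 of 24 myogenic regulators and only 4 of 37 sarcomere and muscle metabolism genes reached in a Prol library. Myod1, a master regulator of the myoblast, measured 0.736, 2.43 and 4.61 CPM in WT and 1.72, 3.3 and 5.88 CPM in KO. KO was higher in each pair, but the libraries of a group spread over several fold and the log2 fold change of 0.67 missed the unadjusted threshold. Myog, which drives terminal differentiation, measured 1.3, 0.652 and 0.388 CPM in WT and 0.494, 1.59 and 0.716 CPM in KO. The 24 myogenic regulators had a median log2 fold change of 0.003 and the 37 sarcomere and muscle metabolism genes one of 0.174, the latter with pair medians of −0.513, 0.518 and 0.232 and only 2 intervals within 1.5-fold. Musk, the receptor kinase of the neuromuscular junction, was the member of that list with an unadjusted p under 0.05, at 2.48, 1.76 and 1.94 CPM in WT and 4.27, 2.41 and 2.91 CPM in KO.

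The 5 called genes that were members of a list stood in those of matrix and protease genes. Of 30 genes for fibrillar collagens, other matrix proteins and crosslinking enzymes, Thbs2 and Fmod were called higher and none lower. Of all tested genes, 0.0622% were called higher and 0.17% lower. In this list 26 had a log2 fold change above 0 (median 0.274), beside 50.5% of all tested genes. The median was 0.031 in the first pair, 0.483 in the second and 0.26 in the third, and no interval of the 30 lay within 1.5-fold. Fn1 (0.19), Thbs1 (0.22) and Col1a1 (0.31) were not called, and Col1a1 spread from 403 to 2160 CPM among the WT libraries alone. Col5a3, a fibrillar collagen chain, had an unadjusted p under 0.05 at 11.4, 16 and 20.4 CPM in WT and 21.3, 21.7 and 25.6 CPM in KO, a log2 fold change of 0.56 that is below 1.5-fold. Eln, elastin, had an unadjusted p under 0.05 at no more than 0.0551 CPM in any of the 6 libraries.

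At D0 the same 30 matrix genes had a median log2 fold change of 0.18 with 2 called (0.402% of all tested genes were). At D2 the median was 0.42 with 3 called (1.14% of all tested genes were), and in WT D2 against WT D0 it was 1.099. Among 26 basement membrane genes 1 was called in each direction, Col15a1 and Lama5, and the median was 0.046. Among 22 proteases and inhibitors Mmp23 was called (median 0.21). Hedgehog, Notch, immediate early, IGF and TGF-β, and interferon genes had no called member in Prol, beside 0.232% of all tested genes. The minimum of 10 CPM was reached by 5 of 8 Hedgehog, 7 of 13 Notch and 10 of 26 interferon genes. Intervals within 1.5-fold numbered 4, 4 and 7 in these lists. They numbered 3 among 21 immediate early genes and 7 among 28 IGF and TGF-β genes. Jag2, a Notch ligand, had an unadjusted p under 0.05 with a log2 fold change of −0.73, but lay at 0.487 to 1.19 CPM. Usp18, an interferon-induced protease, also had an unadjusted p under 0.05, at no more than 0.12 CPM.

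**Figure D5:**
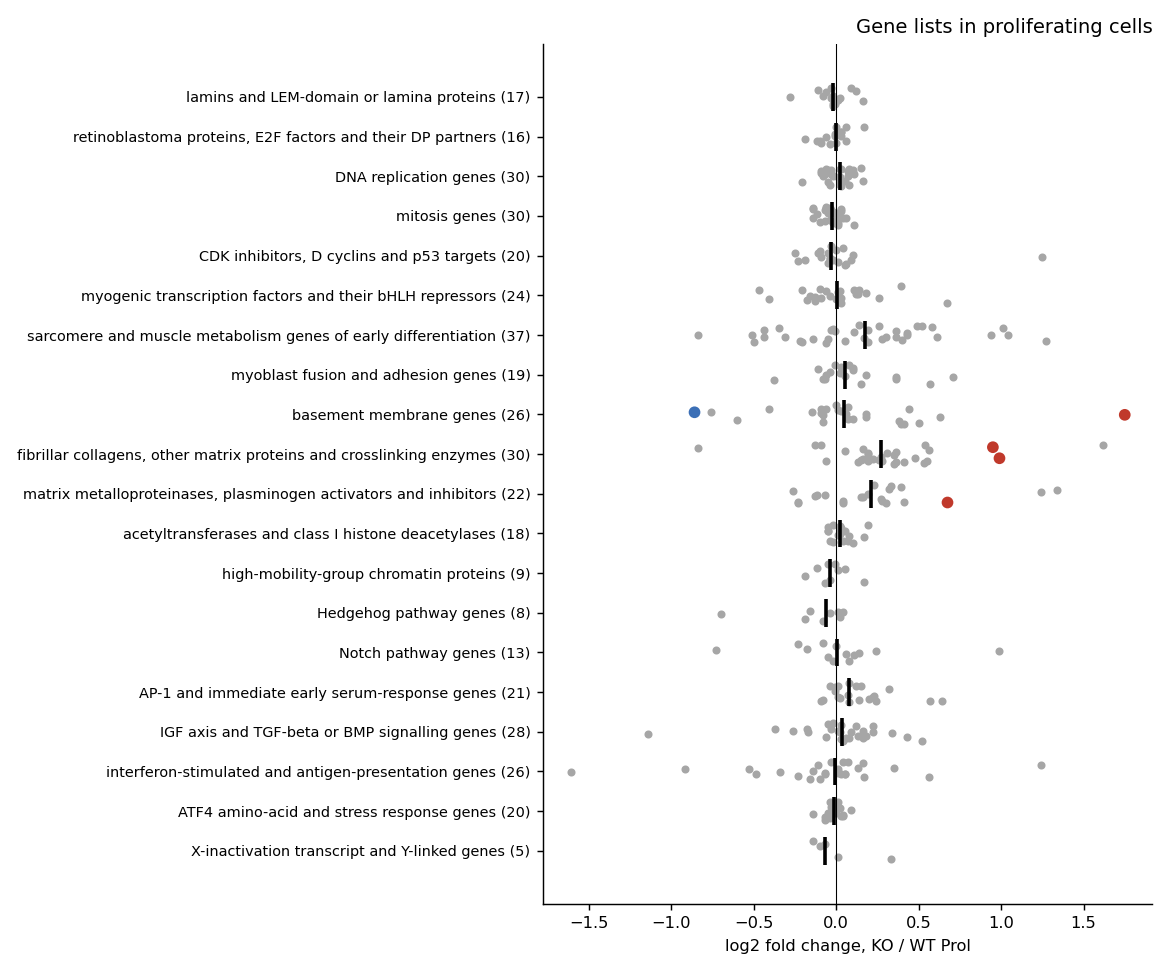
Log2 fold change (KO/WT, Prol) of the tested members of 20 gene lists, the number tested in brackets. Grey points were not called, red were called higher and blue lower, and the bar is the median of the list. Replication and mitosis genes lie close to 0, while fibrillar matrix genes lie mostly to the right (median 0.274).

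Markers of cell identity were compared last. The myoblast markers summed to 558, 407 and 502 CPM in WT and 536, 441 and 538 CPM in KO, with Myf5 averaging 24.5 and 23.4 CPM, while Pax7 was not among the listed genes. The fibroblast markers summed to 537, 569 and 453 CPM in WT and 693, 610 and 549 CPM in KO, though 8 of the 11 tested had a log2 fold change below 0 and their pair medians were −1.216, 0.044 and 0.303. Col3a1 carried that sum at 415 to 621 CPM, while Dcn, Lum and Thy1 stayed below 0.5 CPM in every library. Fap, a fibroblast surface protease, had an unadjusted p under 0.05 at 0.0758, 0.24 and 0.136 CPM in WT and 0.015, 0.061 and 0.0832 CPM in KO (log2 fold change −1.67), the first KO library having no count. Adipocyte markers summed to 19.4, 32.5 and 28.6 CPM in WT and 47.3, 52.3 and 23 CPM in KO, with Pparg at a log2 fold change of 0.41 and Adipoq, Lep and Cfd not among the listed genes. The first and second KO libraries, in which the higher genes differed most, were also those with the higher adipocyte sums. Fabp4 and Pparg carried these sums, whereas Plin1 had a log2 fold change of 0.1, and the part of these markers in the higher genes was not tested. Endothelial markers stayed between 1.67 and 2.56 CPM in all 6 libraries.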

How the data were processed

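RNA of 18 libraries was sequenced, 3 for each of 6 groups. In the study, strand-specific poly(A) libraries were read as 50 bp single ends, trimmed with cutadapt, mapped with NextGenMap to the mouse transcriptome (Ensembl, GRCm38) and quantified with RSEM. The authors deposited, per library, CPM of RSEM expected counts scaled by edgeR's TMM factors and with 0.5 counts added, so that no listed value is 0. Expected counts were recovered from this offset. They are not whole read counts, so no count model was used.

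From these values log2 CPM were fitted in limma 3.58.1 (R 4.3.3) with 6 groups over all 18 libraries, an intensity trend and a random block for the replicate number. The fit held the 17672 of 19153 genes that exceeded 5 expected counts throughout 1 or more groups. The block rests on the data: deviations from group means at 10 CPM or more correlated at 0.556, 0.724 and 0.398 between same-numbered Prol libraries. Over all genes these correlations were lower, at 0.268, 0.315 and 0.163. The study blocked on sequencing lane, which the labels do not give. Genes named were all called genes, with full statistics for the 5 of smallest p in each direction, list members at an unadjusted p under 0.05 or of high level, and Tmpo with its neighbours within 500 kb. The gene with an adjusted p under 0.05, which the rule also names, is not reported here. The members and lists were chosen with earlier results of these data known. The fit was tested on simulated data. Alternatives were no or a fixed block, voom, other scalings, filters and pseudocounts, the Prol libraries alone, and omission of each library and, added after seeing the data, of each pair. Annotation was GENCODE M21 and sequences were from RefSeq (GRCm38.p6). Of the 4 promoters printed, all 4 matched by symbol. Figures used matplotlib 3.10.9.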

Additional observations from a re-analysis of the deposited data

How the results depend on the processing

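Libraries of equal number deviated together, and the replicate block mattered to the count of 41 genes called. Without the block 20 genes were called, all among the 41, of which 3 were higher and 17 lower. A fixed block gave 45, voom 37, library totals alone 36, no filter 40, a pseudocount of 1 CPM 42, and the Prol libraries alone 56, of which 38 were shared. Leaving out 1 library at a time gave 31 to 64 genes, the lowest count without the first WT library (16 shared) and the highest without the third KO library. Leaving out a whole pair, an alternative added after seeing the data, gave 21 without pair 1 (12 shared), 37 without pair 2 and 67 without pair 3. An adjusted p under 0.05 in place of the unadjusted one left 0 called genes, a log2 fold change over 1.5 left 5, and no minimum of 10 CPM gave 367. Of the 41 genes, 17 kept an unadjusted p under 0.05 by limma whichever single library was left out, and 11 whichever pair was left out: Amd-ps3, BC051077, Col15a1, Gas7, Gm37750, Gm45234, Lama5, Pbld2, Rep15, Rpl14-ps1 and Tapbpl. The causes of these shifts were not tested.

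The number of genes whose 95% interval lay within 1.5-fold, 8015 with all libraries, was 4086 without the replicate block, 13764 with a pseudocount of 1 CPM, 5853 to 6441 with 1 library left out, 5069 without pair 2 and 4596 without pair 3. Called members of the gene lists numbered 5, with 2 without the block, 2 to 5 with a library left out, 2 without pair 1 and 2 without pair 2. The difference in effect between D0 and Prol had an adjusted p under 0.05 by limma for 1 gene without the third WT library, and that between D2 and Prol for 4 genes with a pseudocount of 1 CPM. The log2 fold change of Tmpo stayed at −0.35 to −0.20 with 1 library left out, and at −0.28 it passed the unadjusted threshold in the fit of the Prol libraries alone with a fixed replicate block.

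Among called genes the direction turned in Gm10108, at 0.11 without pair 1, beside −5.6 without pair 2. Among other named genes, Anks1b ranged from −0.63 to 0.64 over the libraries and pairs left out (0.25 without pair 1), Cdkn1a from −0.15 to 0.24 (−0.07, −0.01 and −0.04 among them), Col1a1 from −0.10 to 0.73 (−0.08), Ikbip from −0.05 to 0.12, Lmna from −0.03 to 0.18, Myog from −0.26 to 1.08 (−0.17 and −0.05), Thbs1 from −0.14 to 0.63 (−0.10) and Top2a from −0.08 to 0.06 (0.01 with library totals, 0.03 without pair 3).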

Other observations

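Genes of chromosome 16 had a median log2 change within pairs of 0.117, 0.125 and 0.079 in Prol (mean 0.107 ± 0.024, SD, n = 3). The same medians were 0.162, 0.112 and 0.071 at D0 and 0.025, 0.111 and 0.101 at D2, so that all 9 pairs lay above 0. On chromosome 8 the Prol pairs read −0.161, 0.049 and 0.037, and on chromosome 13 they read 0.051, −0.109 and −0.097, with no common sign. A common sign was not particular to chromosome 16. The Prol pairs read 0.018, 0.027 and 0.015 on chromosome 1 and 0.035, 0.019 and 0.009 on chromosome 12. On chromosome 17 they read −0.068, −0.016 and −0.017. Chromosome 16 was singled out after the values were seen, and no test was made. With library totals alone in place of the TMM factors the Prol mean of chromosome 16 was 0.12.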
